A study of Mus musculus with 6 samples.

Results

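The genes described here are 10 receptors and markers of muscle macrophages: Cd163, Mrc1, Cd68, Csf1r, Cd14, Lyz2, C1qa, C1qb, C1qc and Cx3cr1. They were found as every probe set whose symbol in the platform annotation is one of these names, which gave 15 probe sets of the 45037 on the array and 10 genes of the 18193 with a named probe set. Each probe set pools several short probes against a transcript, and its intensity is a brightness on a linear scale. RNA was taken from muscle of 3 mice labelled SIRT6KO (KO) and 3 mice labelled wild type (WT), all on the 129SvJ background, and each was hybridized to its own Affymetrix Mouse Genome 430 2.0 array. SIRT6 removes acyl groups from histones and other proteins and uses NAD to do so. The labels do not name the muscle, the age or the sex of the mice, or how the knockout was made.

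Resident macrophages lie in the connective tissue between muscle fibres, where they take up debris, plasma proteins and iron. Signalling through Csf1r keeps them alive, scavenger and lectin receptors such as Cd163 and Mrc1 mark the resident population of many tissues, and the C1q chains are made largely by tissue macrophages. Cx3cr1 and Cd14 are shared with blood monocytes, and Lyz2 with monocytes and neutrophils.

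Muscle transcripts dominated all 6 arrays, with Acta1 (skeletal actin) between 9376 and 9876 in KO and between 9554 and 15080 in WT. The median intensity lay between 11 and 13.5 in KO arrays and between 10.8 and 15 in WT arrays. WT replicate 1 stood apart: its spiked-in control transcripts read 1.91 times as bright as in WT replicate 2, and its 8 skeletal muscle markers summed to 100396, against 61270 to 64913 in the other 5 arrays. Sirt6 read 22.6, 18.3 and 13.7 in KO and 23.2, 15.1 and 21.3 in WT at probe set 1429631_at, so its level does not check the labels. Xist, the RNA of the inactive X chromosome, read 715.4, 1165.7 and 1138.9 in KO against 31.3, 24.5 and 29.6 in WT, so genotype and sex cannot be told apart in any comparison below. Lower or higher levels in whole muscle can come from the number of cells of a type or from RNA per cell, and these cannot be told apart either.

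The question asked of the macrophage genes was whether their levels in muscle differ between the KO and WT labels. Of the 10 genes, Cd163 was higher in every KO array than in any WT array, Mrc1 was lower on average with values that touched in KO and WT replicate 2, and the other 8 overlapped. None of the 15 probe sets passed limma's test at an adjusted p of 0.05 (Benjamini-Hochberg over all probe sets), as for nearly all of the array, where 0.00888% of probe sets passed. At an unadjusted p under 0.05 there were 2 of 15, those of Cd163 and Mrc1, against 8.56% of all probe sets. The median log2 change of the 10 genes was -0.08, beside -0.02 over all genes with 1 probe set each. Where a gene had several probe sets, the one with the highest mean over the 6 arrays represents it.

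**Figure D1:**
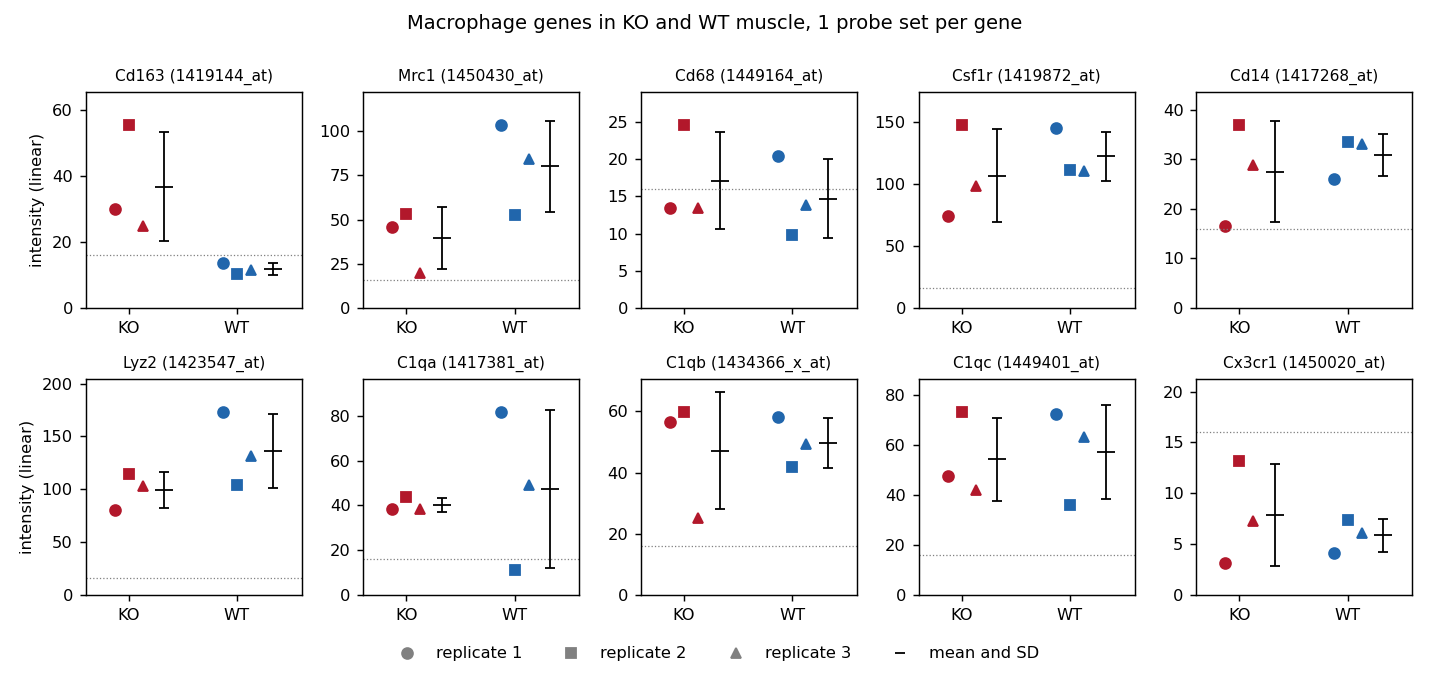
Intensity (linear, vertical axis) of each macrophage gene at its brightest probe set in 3 KO (red) and 3 WT (blue) arrays, with marker shapes for replicates and black bars for the mean and SD. The dotted line is the offset of 16. The 3 KO values of Cd163, 24.8 to 55.6, lie above the 3 WT values, 10.3 to 13.7, and the groups overlap for the other 9 genes.

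Cd163 is the scavenger receptor that takes up complexes of haemoglobin and haptoglobin. Its only probe set, 1419144_at, read 30.2, 55.6 and 24.8 in KO and 13.7, 10.3 and 11.6 in WT. All KO arrays were above the offset of 16 that was added before taking logs, and all WT arrays were below it. The means were 36.9 ± 16.4 in KO and 11.9 ± 1.72 in WT (SD, n = 3 each), a ratio of 3.11, and on the log2(intensity + 16) scale, which understates changes of dim probe sets, Cd163 was 1.84-fold higher with a 95% interval of 1.28 to 2.65 (limma, adjusted p = 0.524, unadjusted p = 0.00559). It was the 1 gene of 10 with every KO array above every WT array, where 4.51% of all genes showed that order. With single arrays left out the log2 change lay between 0.64 (without KO replicate 2) and 1.05 (without KO replicate 3), but the adjusted p never passed.

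Mrc1 encodes the macrophage mannose receptor (CD206), which binds mannose-bearing glycoproteins and collagen fragments. It read 45.6, 53.3 and 19.9 in KO and 103.5, 52.6 and 84.5 in WT at probe set 1450430_at. KO replicate 3 was the lowest array and WT replicate 1 the highest, while KO replicate 2 and WT replicate 2 read nearly alike. The means were 39.6 ± 17.5 in KO and 80.2 ± 25.7 in WT (SD, n = 3 each), and the fold was 0.571 with an interval of 0.343 to 0.949 (limma, adjusted p = 0.564, unadjusted p = 0.0351). The log2 change of -0.81 moved to -0.52 without KO replicate 3 and to -0.63 without WT replicate 1, and to -1.03 without WT replicate 2. After centring each array on its median, every KO array lay below every WT array for Mrc1, but after quantile normalization the groups still overlapped. The share of all genes in that order was not counted under either setting.

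Cd163 and Mrc1, which often mark the same resident macrophages, therefore lay on opposite sides of WT on average in the same RNA, and neither passed the test. Their promoters (RefSeq, GRCm38.p6, from 250 bases before the start to 50 after it) are shown because these are the genes with the widest shifts, and capitals mark 2 short motifs on either strand. These are GAGGAA, a core that the macrophage factor PU.1 binds, and AGAACA, a core of the glucocorticoid receptor's site. Of 32851 promoters of the same length, 28.3% hold GAGGAA and 19.0% hold AGAACA. The Cd163 window (chr6:124304401-124304700, plus strand) holds AGAACA 2 times and no GAGGAA, and the Mrc1 window (chr2:14229164-14229463, plus strand) holds GAGGAA 3 times and no AGAACA. Such matches are letters in a window, not binding sites, and no motif letters overlapped.
Cd163: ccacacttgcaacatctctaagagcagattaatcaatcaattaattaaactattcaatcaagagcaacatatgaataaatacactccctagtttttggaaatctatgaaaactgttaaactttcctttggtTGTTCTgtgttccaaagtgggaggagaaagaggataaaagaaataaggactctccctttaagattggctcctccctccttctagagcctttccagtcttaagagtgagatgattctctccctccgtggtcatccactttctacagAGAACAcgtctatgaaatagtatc
Mrc1: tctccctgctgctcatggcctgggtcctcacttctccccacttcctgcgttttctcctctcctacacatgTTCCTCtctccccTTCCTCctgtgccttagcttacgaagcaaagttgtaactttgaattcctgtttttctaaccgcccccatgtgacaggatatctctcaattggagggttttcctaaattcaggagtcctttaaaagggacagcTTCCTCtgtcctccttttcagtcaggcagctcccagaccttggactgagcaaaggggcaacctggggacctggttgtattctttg

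Differences between genes within an array do not depend on how that array was scaled, apart from the added offset. The log2 value of Cd163 minus that of Mrc1 was -0.42, 0.05 and 0.18 in KO and -2.01, -1.38 and -1.86 in WT. The groups were well apart, by 1.69 on average. The same difference between Cd163 and each of the other 9 genes was higher in every KO array for 8 of 9, with average shifts of 0.77 (Cx3cr1 and Cd68) to 1.69 (Mrc1), and it overlapped for C1qa. Cx3cr1 is among the 8, although it was below 16 in every array, and without it the count was 7 of 8. Cd163 itself was below 16 in every WT array, so the size of these shifts depends on the offset. All 9 differences hold the same Cd163 values, whose groups were already apart, so the 8 are not separate observations. The share of all genes with such a difference was not counted. Cd163 was singled out after its values were seen, so these differences are a description and were not tested.

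**Figure D2:**
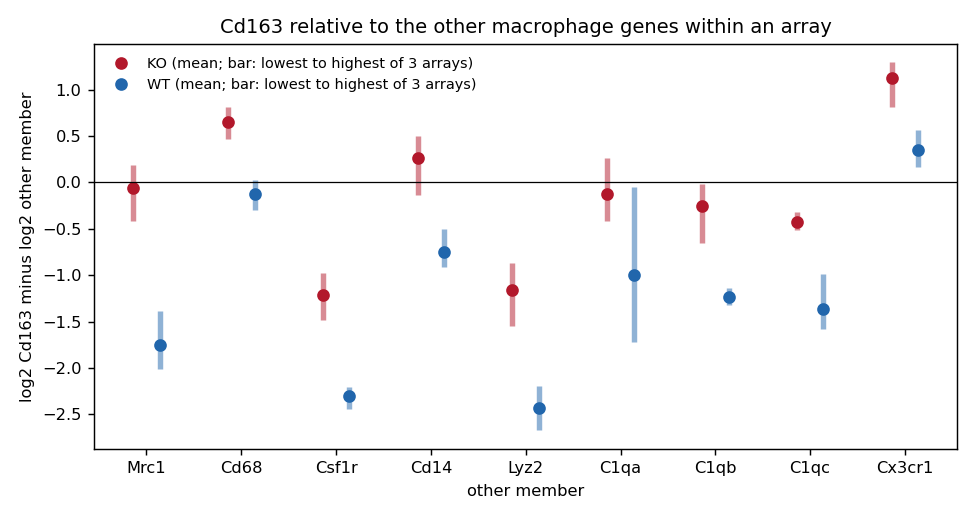
Log2 intensity (offset 16) of Cd163 minus that of each other macrophage gene within the same array (vertical axis), with dots for the mean and bars from the lowest to the highest of 3 arrays, KO in red and WT in blue. Only the shift between groups is meaningful, since probe sets differ in brightness. The KO bar lies above the WT bar for 8 of 9 genes, all of which share the same Cd163 values.

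Csf1r, the receptor for the growth factors CSF1 and IL-34, was measured by 3 probe sets that gave much the same result. The brightest, 1419872_at, read 74.6, 147.6 and 98.3 in KO and 145.3, 111.4 and 110.8 in WT. KO replicate 2 was the highest of all 6 arrays and KO replicate 1 the lowest, so the KO values enclosed those of WT. The fold was 0.866 with an interval of 0.587 to 1.28 (limma, adjusted p = 0.862), and the 2 other probe sets, 1423593_a_at and 1419873_s_at, gave 0.862 and 0.846. Its ligand Csf1 read 32.4, 48.2 and 38.6 in KO and 72.9, 45.7 and 52.9 in WT, with only WT replicate 2 inside the KO range (adjusted p = 0.619). The other ligand, Il34, read 14.2 to 19.3 in KO and 12.3 to 20.5 in WT, around the offset in both groups.

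Cd14, the co-receptor that hands bacterial lipopolysaccharide to Tlr4 and Ly96, read 16.6, 36.9 and 28.9 in KO and 26.0, 33.4 and 33.1 in WT. The KO spread enclosed the WT values, and the fold was 0.913 with an interval of 0.657 to 1.27 (limma, adjusted p = 0.905). Tlr4 read 8.8 to 26.5 in KO and 12.9 to 24.3 in WT, and Ly96 stayed below the offset in all arrays, at 1.2 to 13.8 in KO and 7.8 to 9.6 in WT.

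Cx3cr1, the receptor for the membrane-bound chemokine Cx3cl1, was dim throughout. Its 2 probe sets were below 16 in all 6 arrays: 1450020_at read 3.2, 13.2 and 7.3 in KO and 4.1, 7.4 and 6.1 in WT, and 1450019_at lay between 0.5 and 3.6 in KO and between 1.0 and 5.5 in WT. A difference in Cx3cr1 was therefore not detectable at this signal. Its ligand Cx3cl1 read 19.6 to 27.0 in KO and 17.9 to 28.5 in WT.

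Cd68, a glycoprotein of lysosomes and late endosomes, was close to the offset. It read 13.4, 24.6 and 13.4 in KO and 20.4, 9.8 and 13.9 in WT at probe set 1449164_at, with 2 of 6 arrays at or above 16. KO replicate 2 and WT replicate 1 were the high arrays, and the fold was 1.08 with an interval of 0.781 to 1.49 (limma, adjusted p = 0.928).

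Lyz2, the lysozyme of macrophages, monocytes and neutrophils, read 80.5, 114.8 and 102.8 in KO and 173.2, 104.0 and 131.9 in WT. Only WT replicate 2 lay within the KO range. The means were 99.4 ± 17.4 in KO and 136.4 ± 34.8 in WT (SD, n = 3 each), and the fold was 0.764 with an interval of 0.544 to 1.07 (limma, adjusted p = 0.651). Lyz1, the neighbouring and closely related lysozyme gene, can share probes with Lyz2. Its brightest probe set, 1436996_x_at, a type whose probes may match other transcripts, read 33.5, 50.6 and 50.6 in KO and 95.9, 34.3 and 66.9 in WT, and, like that of Lyz2, was lowest in KO replicate 1 and highest in WT replicate 1. The 2 other Lyz1 probe sets did not share this. At 1439426_x_at the values were 19.8, 35.6 and 26.3 in KO and 33.9, 18.5 and 23.0 in WT. At 1450822_at they were 11.8, 8.1 and 5.8 in KO and 2.0, 1.9 and 1.3 in WT, higher in every KO array but all below 16.

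The 3 C1q chains form the recognition part of the classical complement pathway, and their genes lie side by side on chromosome 4. C1qa read 38.3, 43.7 and 38.5 in KO and 81.7, 11.2 and 48.9 in WT at 1417381_at. Its KO arrays were alike and its WT arrays spread widely, with means of 40.2 ± 3.06 in KO and 47.3 ± 35.3 in WT (SD, n = 3 each). The fold was 1.01, with an interval of 0.494 to 2.06 (limma, adjusted p = 0.997). At 1449401_at C1qc read 47.7, 73.4 and 42.1 in KO and 72.7, 36.1 and 63.2 in WT, and its fold was 0.967 with an interval of 0.635 to 1.47 (adjusted p = 0.984).

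C1qb had 3 probe sets. The brightest, 1434366_x_at, read 56.4, 59.8 and 25.2 in KO and 58.0, 41.9 and 49.2 in WT, with a fold of 0.932 and an interval of 0.612 to 1.42 (limma, adjusted p = 0.953). Probe set 1417063_at read 34.6, 58.9 and 27.4 in KO and 61.1, 27.2 and 52.1 in WT. The third, 1437726_x_at, read 21.5 to 23.6 in KO and 57.4, 23.5 and 23.1 in WT, so that WT replicate 1 alone stood out.

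All 3 chains, by their brightest probe sets, were highest in WT replicate 1 among WT arrays and lowest in WT replicate 2, and highest in KO replicate 2 among KO arrays. This order was not theirs alone: KO replicate 2 was the highest KO array for 10 of 10 macrophage genes and WT replicate 1 the highest WT array for 8. The third C1qb probe set, 1437726_x_at, did not follow it, being highest in KO replicate 3 among KO arrays. The promoters of 2 of the chains (GRCm38.p6, minus strand) are shown as those of neighbouring genes, with capitals as above. C1qb (chr4:136886151-136886450) holds GAGGAA 1 time and AGAACA 1 time, and C1qc (chr4:136892865-136893164) holds GAGGAA 1 time and AGAACA 2 times.
C1qb: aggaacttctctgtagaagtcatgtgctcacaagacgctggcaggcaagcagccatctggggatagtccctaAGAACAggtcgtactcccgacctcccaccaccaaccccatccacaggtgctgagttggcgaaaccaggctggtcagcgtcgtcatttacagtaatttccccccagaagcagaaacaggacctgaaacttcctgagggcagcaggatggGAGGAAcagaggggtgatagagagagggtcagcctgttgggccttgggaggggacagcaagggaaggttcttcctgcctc
C1qc: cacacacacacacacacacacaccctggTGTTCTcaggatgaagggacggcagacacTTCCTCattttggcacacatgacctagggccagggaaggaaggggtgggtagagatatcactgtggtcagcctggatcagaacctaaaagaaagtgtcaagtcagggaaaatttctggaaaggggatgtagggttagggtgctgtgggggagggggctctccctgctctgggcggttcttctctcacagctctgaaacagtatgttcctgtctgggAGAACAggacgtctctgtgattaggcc

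The spread among replicates was itself shared by most of the macrophage genes. KO replicate 2 was the highest KO array for 10 of 10 genes, and WT replicate 1 the highest WT array for 8 of 10. WT replicate 2 was the lowest WT array for 7 of 10. The median log2 distance of the 10 genes from their WT means was -0.18, 0.23 and -0.16 in KO replicates 1, 2 and 3 and 0.24, -0.21 and 0.01 in WT replicates 1, 2 and 3. Array medians moved partly with this order, at 11, 13.5 and 12.2 in KO and 15, 12.3 and 10.8 in WT, and their part in it was not tested. KO replicate 2 and WT replicate 1 had the highest medians of their groups. The share of all genes with the same order was not counted, so it cannot be called particular to the macrophage genes.

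**Figure D3:**
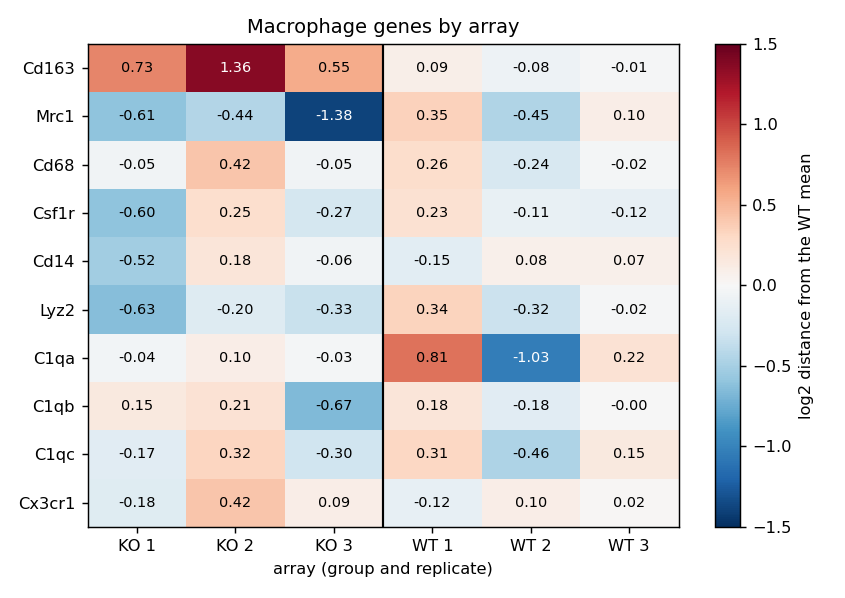
Log2(intensity + 16) of each macrophage gene at its brightest probe set (rows) as the distance from that gene's WT mean, in 3 KO and 3 WT arrays (columns). Cd163 is above the WT mean in all KO arrays (0.55 to 1.36), Mrc1 below it in all of them (-1.38 to -0.44), and most other genes are higher in KO replicate 2 and WT replicate 1 than in the rest of their group.

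**Figure D4:**
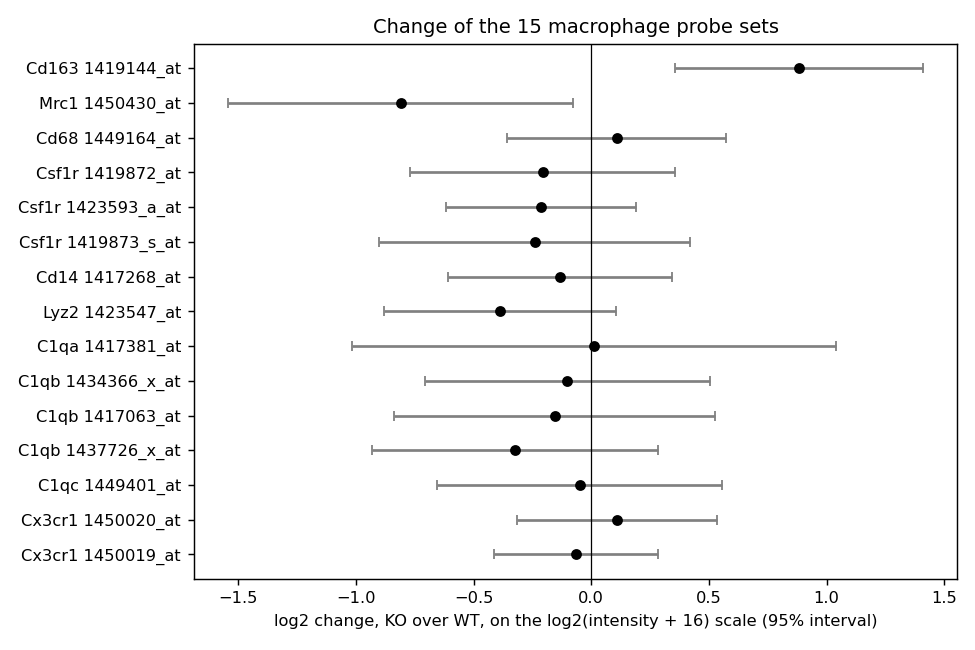
Log2 change, KO over WT, of the 15 macrophage probe sets (dots) with 95% intervals from limma, on the log2(intensity + 16) scale. The intervals of Cd163 and Mrc1 leave out 0 on opposite sides and the other 13 include it; none passed after adjustment over all probe sets.

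No macrophage gene was lower in every KO array, where 8.34% of all genes were. With single arrays left out, that count changed only for replicate 2 of either group. Without KO replicate 2 it was 3 of 10 (Mrc1, Csf1r and Lyz2), beside 15.1% of all genes. Without WT replicate 2 it was 3 of 10 (Mrc1, Lyz2 and C1qa), beside 12.8%. It stayed at 0 of 10 without KO replicate 1 (beside 12.5%), KO replicate 3 (12.5%), WT replicate 1 (10.2%) or WT replicate 3 (19.1%).

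Wider macrophage genes gave a similar picture, from lists of the lineage's usual genes that were chosen with earlier results of these data known. Of 22 general macrophage genes 21 had a named probe set, and 14 of these had a mean of at least 16. By limma 0 of 21 passed over all probe sets, 1 was at an unadjusted p under 0.05 (Mertk) against 8.56% of all probe sets, and the median log2 change was -0.12. Adgre1, the gene of the F4/80 antigen, read 43.5, 63.3 and 20.0 in KO and 70.0, 48.7 and 54.8 in WT. Maf, a transcription factor of resident macrophages that other cells of muscle also express, was the 1 gene of 21 with every KO array below every WT array, a smaller share than the 8.34% of all genes, at 250.1, 232.6 and 102.8 in KO and 430.4, 321.4 and 255.6 in WT (adjusted p = 0.592). Mertk, a receptor for the uptake of dying cells, lay the other way at 26.2, 44.1 and 53.8 in KO and 29.1, 24.0 and 15.8 in WT. The integrin genes Itgam and Itgb2 and the marker Aif1 were dim, with means over the 6 arrays of 7.13, 10.4 and 4.98.

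Genes of resident, scavenging macrophages were mostly lower in KO. Of 14 listed genes 13 had a log2 change below 0, where 53.2% of all genes did, and the median was -0.31 beside -0.02 over all genes. In 4 of 14 every KO array was below every WT array, against 8.34% of all genes, and in 0 every KO array was above. This list too was chosen with earlier results of these data known, so the shares are a description and not a test. A mean of at least 16 was reached by 9 of 14. These 9 all had a log2 change below 0, where 51.2% of all genes at that mean did. Cbr2, a carbonyl reductase gene of resident macrophages, read 23.0, 24.2 and 6.1 in KO and 50.5, 30.6 and 43.0 in WT. Clec10a, a galactose-binding lectin gene, read 7.0, 12.2 and 14.9 in KO and 19.9, 19.3 and 21.2 in WT.

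The other 2 of these 4 were Siglec1 and Mgl2, both genes of sugar-binding surface receptors. Siglec1 read 18.3, 14.1 and 17.1 in KO and 35.0, 23.5 and 23.3 in WT, and Mgl2 read 12.8, 13.8 and 11.7 in KO and 28.6, 24.5 and 14.3 in WT. All 4 were near the offset in KO, and none passed over all probe sets (limma, 0 of 14, with 3 at an unadjusted p under 0.05 against 8.56% of all probe sets). The lowest adjusted p in the list was 0.556, for Cbr2. The count of genes apart can only stay or grow when an array is left out. It was 4 of 14 without KO replicate 1 (beside 12.5% of all genes), WT replicate 1 (10.2%) or WT replicate 3 (19.1%), 6 of 14 without KO replicate 3 (12.5%), 7 of 14 without KO replicate 2 (15.1%) and 8 of 14 without WT replicate 2 (12.8%). The list's median log2 change was -0.15 without WT replicate 1 and -0.45 without WT replicate 2.

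**Figure D5:**
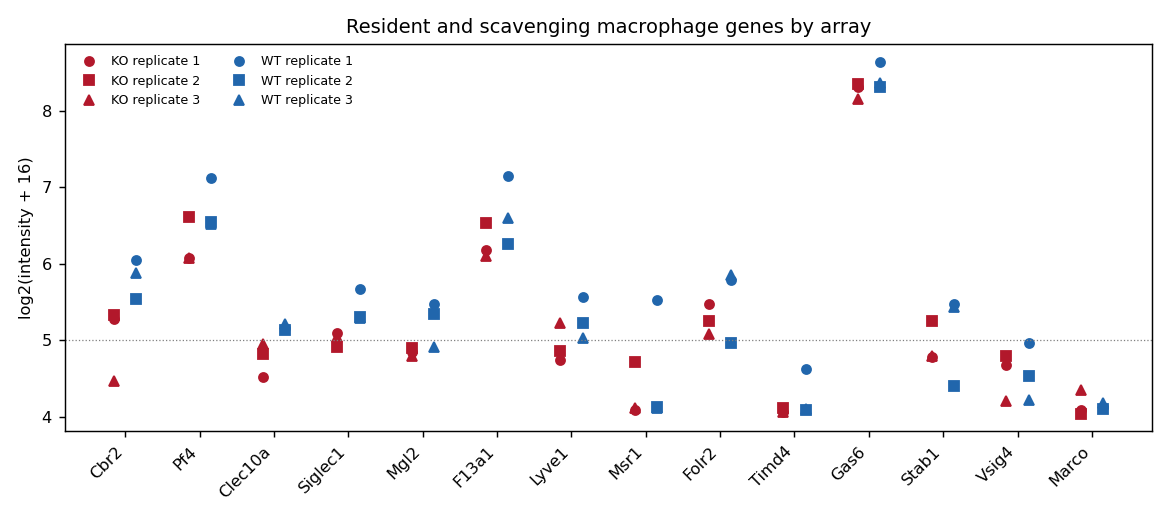
Log2(intensity + 16) of 14 resident and scavenging macrophage genes, ordered by their log2 change, in KO (red, left) and WT (blue, right) arrays, with marker shapes for replicates. The dotted line marks an intensity of 16. Cbr2, Clec10a, Siglec1 and Mgl2 have no overlap between groups.

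Stromal markers were divided. Of 4 measured fibro-adipogenic markers, the matrix genes Lum and Col1a1 were lower in every KO array, beside 8.34% of all genes, and none was at 0. Dcn overlapped, and so did Pdgfra, the receptor that defines these cells, which was higher on average at 67.5, 155.6 and 99.6 in KO and 86.7, 67.1 and 59.4 in WT. The 4 summed to 1970 to 2814 in KO and 3076 to 5331 in WT, a sum made up mostly of Col1a1 and Dcn. Lum read 136.2, 102.1 and 70.7 in KO and 326.7, 143.1 and 256.8 in WT (adjusted p = 0.529). The part of these cells in the macrophage values was not tested.

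Genes of monocytes and recruited macrophages were mostly too dim to read, with 3 of 8 measured genes at a mean of at least 16 and 0 of 8 with groups apart. Ccr2, the chemokine receptor of incoming monocytes, read 0.7 to 6.9 in KO and 5.2 to 20.0 in WT. Lgals3, a lectin gene raised in activated macrophages, read 15.7, 44.6 and 48.5 in KO and 26.2, 20.0 and 10.6 in WT, and Trem2 stayed near or below the offset at 8.1 to 17.3 in KO and 1.1 to 9.9 in WT. By limma 0 of 8 passed and 0 were at an unadjusted p under 0.05.

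Markers of other blood-derived cells gave little signal. Of 7 neutrophil markers 4 had a mean of at least 16, and their sum was 93.6 to 164.1 in KO and 98.8 to 115.2 in WT. Elane, neutrophil elastase, was the 1 gene of 7 lower in every KO array, beside 8.34% of all genes. It read 6.3, 5.2 and 6.6 in KO and 7.5, 24.5 and 15.2 in WT, reaching 16 in 1 array. Of the 7 neutrophil markers, 4 had a log2 change above 0. Among them, S100a8 read 22.2, 30.5 and 11.4 in KO and 16.1, 5.6 and 3.2 in WT. The 5 T cell markers summed to 37.5 to 46.9 in KO and 18.3 to 46.3 in WT, and the defining Cd3d, Cd3e and Cd3g were below 16 in every array. The sums of 3 B cell markers overlapped only in part, at 30.9 to 36.8 in KO and 31.0 to 50 in WT. For 5 mast cell markers the sums were 47.8 to 92.5 in KO and 63.3 to 79.0 in WT. Of these 5, 2 were lower in every KO array, beside 8.34% of all genes: the protease gene Mcpt4 read 1.4, 3.5 and 1.2 in KO and 17.9, 11.2 and 4.0 in WT. The receptor gene Kit read 11.5, 8.5 and 3.3 in KO and 13.2, 12.6 and 13.3 in WT, so it stayed below 16. Of the 5 mast cell markers, 2 (Cma1 and Tpsb2) had a log2 change above 0. A mean of at least 16 was reached by 2 (Cpa3 and Tpsb2), and both overlapped. The part of these cells in the macrophage values was not tested. For 4 dendritic cell markers the sums were 60.3 to 74.7 in KO and 63.5 to 92.2 in WT. The 2 NK cell markers summed to 13.8 to 18 in KO and 12.0 to 21.0 in WT. No marker in these lists was listed at 0. Endothelial markers, relevant because some vessels also express Mrc1, summed to 475.3 to 720.6 in KO and 427.2 to 532.1 in WT, with the KO sums reaching higher than those of WT.

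Partners of the receptors were read beside them. Hp, which encodes the haptoglobin carried into cells by Cd163, read 37.6, 41.0 and 46.0 in KO and 104.7, 84.0 and 41.9 in WT (adjusted p = 0.591). Adam17, the protease that sheds Cd163 and Csf1r from the cell surface, read 29.3, 51.7 and 26.8 in KO and 79.0, 56.0 and 45.8 in WT, with WT replicate 3 inside the KO range. In this list 0 of 9 measured genes passed by limma and 0 were at an unadjusted p under 0.05. A log2 change below 0 was seen in 7 of 9, where 53.2% of all genes had one. Several of these changes were close to 0, and the list's median was -0.05, beside -0.02 over all genes.

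Haem and iron genes, which act after Cd163 has delivered its cargo, had 7 measured members. Slc40a1, the iron exporter ferroportin, read 96.2, 303.4 and 512.4 in KO and 88.7, 81.5 and 43.8 in WT, every KO array being above every WT array (adjusted p = 0.556, unadjusted p = 0.021). Slc11a1, an iron and manganese transporter of phagosomes, was also higher in every KO array but by little, at 25.9, 27.0 and 26.2 in KO and 18.9, 25.2 and 20.2 in WT. These were 2 of 7 genes, against 4.51% of all genes. Fth1, the ferritin heavy chain, read 4573.4, 5345.3 and 5611.1 in KO and 4829.6, 3919.5 and 3300.8 in WT, with WT replicate 1 inside the KO range. Blvra, a biliverdin reductase, was the 1 gene of 7 lower in every KO array, beside 8.34% of all genes, at 51.5, 47.9 and 43.9 in KO and 87.0, 65.5 and 52.5 in WT. Hmox1, the enzyme that opens haem, read 15.5, 11.3 and 44.5 in KO and 16, 24.8 and 21.5 in WT. By limma 0 of 7 passed and 1 (Slc40a1) was at an unadjusted p under 0.05, against 8.56% of all probe sets. Muscle fibres express several of these genes too.

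Complement genes outside C1q had 8 measured members; 0 passed by limma and 1 (C3ar1) was at an unadjusted p under 0.05, against 8.56% of all probe sets. The serine proteases that join C1q overlapped between groups: C1ra read 51.7, 78.5 and 61.1 in KO and 58.9, 54.1 and 48.8 in WT, and C1s1 read 50.7 to 90.2 in KO and 53.6 to 81.6 in WT. Serping1, their inhibitor, read 202.1 to 272.0 in KO and 183.0 to 247.0 in WT. C3ar1, the receptor for the C3a fragment on myeloid cells, was the 1 gene of 8 lower in every KO array, a share near the 8.34% of all genes, at 16.8, 13.2 and 19.9 in KO and 28.2, 23.7 and 28.6 in WT (adjusted p = 0.559, unadjusted p = 0.0215). Cfb, a protease of the alternative pathway, read 1.4 to 9.4 in KO and 1.8 to 16.6 in WT. C3 itself was not analysed here.

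Cytokines and polarization genes were dim, with 6 of 17 at a mean of at least 16. Retnla, a gene that alternatively activated macrophages and fat express, read 21.4, 54.9 and 66.7 in KO and 149.1, 50.2 and 139.2 in WT (adjusted p = 0.597), with WT replicate 2 inside the KO range. Tgfb1 read 17.5, 24.3 and 16.4 in KO and 38.2, 23.2 and 23.7 in WT, and the chemokine gene Ccl8 read 21.1 to 44.0 in KO and 32.3 to 44.4 in WT. Il6 was the 1 gene of 17 with groups apart, beside 8.34% of all genes, but at 0.1 to 0.2 in KO and 0.3 to 4.7 in WT it was far below the offset. By limma 0 of 17 passed and 0 were at an unadjusted p under 0.05. Among 7 measured lysosomal genes Ctsl, a cathepsin also made by wasting muscle fibres, was the 1 gene higher in every KO array, beside 4.51% of all genes, at 655.2, 2129.5 and 4206.0 in KO and 616.1, 474.7 and 439.1 in WT (adjusted p = 0.561). By limma 0 of 7 lysosomal genes passed and 1 (Ctsl) was at an unadjusted p under 0.05, against 8.56% of all probe sets. Grn, the progranulin gene, read 258.5 to 378.1 in KO and 286.2 to 425.9 in WT. Lamp1 and Lamp2, relatives of Cd68, overlapped, at 1010 to 1281 and 275.3 to 516.9 in KO and at 969.4 to 1444 and 210.1 to 356.8 in WT.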

How the data were processed

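The authors deposited linear intensity values, 1 for each probe set on each array. Per the labels' protocols, the RNA came from a TriPure extraction and carried a biotin label; how the intensities were summarised and scaled is not given in the sources used here. After 64 control probe sets were left out, 45037 were tested as log2(intensity + 16) without further normalization, with limma 3.58.1 (lmFit and eBayes, two-sided) in R 4.3.3 and Benjamini-Hochberg adjustment over all probe sets at 0.05. The adjusted p-values in the text are limma's. No detection calls were used, and precision is limited by having 3 arrays a group. Simulated data were used to test the fit.

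The platform annotation gave 1 symbol for 34945 probe sets, several for 932 and none for 9160, and 34741 matched the RefSeq gene table. Promoters of 7 members were matched, and those printed are RefSeq's. The genes named were all 10 members, the 3 lowest p and all genes with groups apart in each of the 8 macrophage and pathway lists, and a fixed set of partners. Markers of other cell types named beside them were chosen after their values were seen. Members and lists were chosen with earlier results of these data known. The labels give both groups replicate numbers 1 to 3. Deviations of same-numbered arrays correlated at -0.0046, 0.02 and -0.039, so no pairing by number was seen, though 3 such values cannot exclude one. Alternatives were quantile normalization, median centring, a filter on dim probe sets, a trended and robust variance, the replicate block, offsets of 1 and 64, averaging over the probe sets of a gene, each array left out and a threshold of 0.01. Fits of the resident macrophage list under these alternatives were added after seeing the data. Of sample columns, 0 were left unused.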

Additional observations from a re-analysis of the deposited data

How the results depend on the processing

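Cd163 was higher and Mrc1, Lyz2 and Csf1r lower in KO under all 14 alternatives run for each, but several could not change the direction. The filter, the replicate block and the trended and robust variance leave the log2 change as it was. So does averaging probe sets for Cd163, Mrc1 and Lyz2, each with a single probe set. With arrays left out, the direction of Cd163 is fixed by its groups, which do not overlap. The log2 change of Csf1r lay between -0.44 (without KO replicate 2) and -0.0091 (without KO replicate 1), the latter close to no change. No macrophage probe set passed where they were tested (13 of 15 with the filter), nor any of the 10 genes when probe sets were averaged; the lowest adjusted p was 0.155 for Cd163 and 0.259 for Mrc1, both with the filter on dim probe sets. The log2 change of Cd163 lay between 0.40 (offset of 64) and 1.48 (offset of 1), and that of Mrc1 between -1.06 (offset of 1) and -0.48 (offset of 64). With the replicate block, although no pairing by number was seen, limma's adjusted p was 0.615 for Cd163 and 0.672 for Mrc1. With it 0 probe sets of the array passed, and 3367 were at an unadjusted p under 0.05.

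Genes with a change near 0 turned sign: C1qa with an offset of 64 (-0.044), quantile normalization (-0.0034) and arrays left out (-0.50 to 0.42), C1qc (-0.28 to 0.11), C1qb (-0.26 to 0.18), Cd14 (-0.288 to 0.061), Cd68 (-0.048 to 0.237) and Cx3cr1 (-0.045 to 0.257) with arrays left out. The cause was not tested. The members' median log2 change lay between -0.25 and 0.05 with arrays left out. Their count lower in every KO array was 1 with median centring and 0 with quantile normalization, where the share of all genes was not counted. It was 0 to 3 of 10 with arrays left out, where fewer arrays are compared, beside 10.2% to 19.1% of all genes. The resident macrophage list's median was -0.57 with an offset of 1, -0.14 with an offset of 64, and -0.45 to -0.15 with arrays left out.

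The 4 probe sets called over the whole array became 77 with the filter (19 higher, 58 lower), 15 with the trended and robust variance, 11 with median centring, 9 with quantile normalization, 1 with an offset of 64, 2 at a threshold of 0.01, and 1 to 6 with arrays left out. Genes below an intensity of 16 (Cx3cr1, most monocyte genes) cannot be compared at this signal.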

Other observations

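The genes whose array pattern lay nearest to that of the C1q chains were found by the root mean square difference of centred log2 values over the 6 arrays, among 4511 genes outside the lists with a mean of at least 64. They were Mfap2, a microfibril glycoprotein gene (0.113), E2f5, an E2F transcription factor gene (0.116), Clcn5, an endosomal chloride-proton exchanger gene (0.162), Ccdc3 (0.174) and Cdk5rap3 (0.186). Mfap2 read 73.3, 90.9 and 71.8 in KO and 107.1, 49.2 and 99.7 in WT, with WT replicate 1 highest and WT replicate 2 lowest, as for the C1q mean profile of 0.0045, 0.24 and -0.31 in KO and 0.46, -0.53 and 0.14 in WT. The likeness rests on 6 arrays and is a description only.

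Beyond the macrophage lists, 1 of 3 satellite cell markers, the early myogenic factor Myf5, was higher in every KO array, beside 4.51% of all genes. It read 21.2, 17.1 and 15.9 in KO and 5.2, 5.1 and 6.6 in WT (limma, adjusted p = 0.462). Only 2 arrays reached 16 for Myf5. Pax7 overlapped at 6.7 to 11.3 in KO and 1.3 to 17.9 in WT. The smooth muscle actin gene Acta2 was the 1 of 4 smooth muscle markers lower in every KO array, beside 8.34% of all genes. It read 340.2, 255.1 and 105.4 in KO and 802.0, 585.0 and 539.2 in WT (limma, adjusted p = 0.524). Myh11 overlapped at 7.8 to 39.3 in KO and 13.2 to 37.2 in WT. Tagln was higher on average, at 45.3, 45.2 and 48.5 in KO and 45.7, 34.1 and 27.2 in WT. Des, the desmin gene of muscle fibres, was the 1 of 8 skeletal muscle markers higher in every KO array, beside 4.51% of all genes. It read 2428.9, 2866.9 and 2606.2 in KO and 2413.5, 2419.7 and 1928.7 in WT, so KO replicate 1 and WT replicate 2 were nearly alike. Of these 8 markers, 6 had a log2 change below 0. The 3 adipocyte markers summed to 167.9 to 474.7 in KO and 358.4 to 716.7 in WT. Of these 3, the leptin gene Lep was lower in every KO array, beside 8.34% of all genes. It read 2.9 to 6.0 in KO and 7.1 to 19.1 in WT, reaching 16 in 1 array. The 2 red blood cell markers summed to 29.7 to 55.0 in KO and 42.8 to 71.4 in WT.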
